A study of Mus musculus with 12 samples.

Results

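The comparison of the cerebral cortex of HARE5Hs/Hs and WT mouse embryos at E12.5, made by RNA sequencing, is the subject here. It takes 6 of the 12 libraries of the study by their labels, 3 from HARE5Hs/Hs embryos and 3 from WT embryos, where E stands for embryonic day. The other 6 libraries, 3 HARE5Hs/Hs and 3 WT at E14.5, entered the fit and serve as separate embryos at a later age. HARE5Hs/Hs embryos are homozygous knock-in animals for the human form of HARE5, an enhancer of Fzd8, and WT embryos carry none. Each library was made from the microdissected cortical tissue of 1 embryo. Strain, litter, sex and the number of founder animals of the knock-in line are not labelled, so p-values measure the spread between embryos that may share a litter. Total counts of the 6 libraries ranged from 14708290 to 17670103.

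HARE5 is a stretch of mouse and human DNA that drives expression in the developing neocortex and whose sequence changed faster on the human branch than on the chimpanzee branch. Its target, Fzd8, encodes a Frizzled receptor. Wnt ligands bind a Frizzled together with an LRP co-receptor, which stabilises beta-catenin and lets it act with LEF and TCF factors on genes such as Axin2 and Ccnd1. In the early cortex this signal helps to keep radial glia dividing and to set regional identity, and at E12.5 the first deep-layer neurons are being made.

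No gene passed the test between the genotypes at this age. Of 14311 genes tested with edgeR's quasi-likelihood method, 0 stood higher and 0 lower in HARE5Hs/Hs at a Benjamini-Hochberg adjusted p under 0.05 (0% in each direction). The smallest adjusted p was 1 after rounding. DESeq2's Wald test gave 0 of 17933 genes at its adjusted p (0%) and 339 (1.89%) at an unadjusted p under 0.05. Without adjustment, edgeR gave 322 genes (2.25%) at p under 0.05, 196 higher (1.37%) and 126 lower (0.88%) in HARE5Hs/Hs. In 1023 genes (7.15%) the 3 HARE5Hs/Hs embryos and the 3 WT embryos did not overlap, with HARE5Hs/Hs higher in 478 (3.34%) and lower in 545 (3.81%). The unadjusted shares of both tests lie under the level that the threshold itself allows where no gene differs. Groups of 3 embryos can also stand apart in some genes without any difference between genotypes. The verbs "rose" and "fell" are therefore not used of any gene, and each value below is a difference that did not pass.

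The spread between embryos sets how small a difference the comparison could see. The median standard error of a log2 fold change was 0.151, with quartiles of 0.101 and 0.318. In 11071 genes (77.4%) the 95% interval of the difference lay within a doubling and a halving, and in 7905 (55.2%) within 0.5 on the log2 scale. Among the 12493 genes with a mean of at least 2 CPM (counts scaled to library size), 88.3% had an interval within a doubling and a halving. For most expressed genes a 2-fold difference thus lay outside the interval. The 296 genes with a fitted fold of at least 2 were mostly weakly expressed, with a median of 0.758 CPM against 26.6 CPM over all tested genes.

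**Figure D1:**
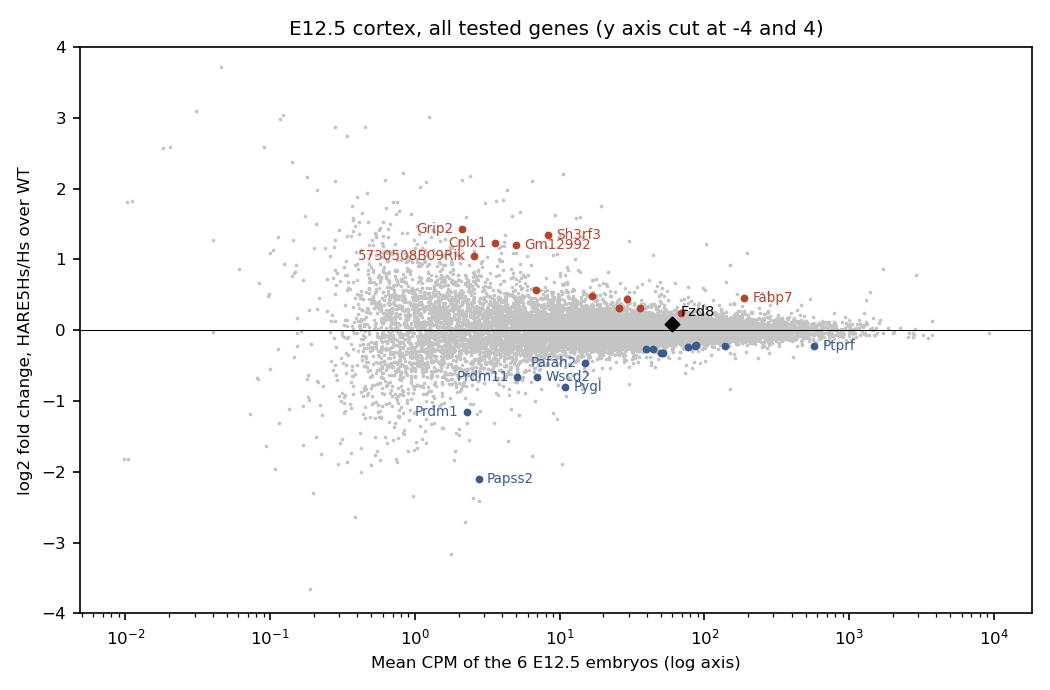
Each grey point is 1 tested gene at E12.5, with the mean CPM of the 6 embryos on a log axis and the log2 fold change of HARE5Hs/Hs over WT on the vertical axis, where 13 genes beyond 4 lie outside the frame. Red and blue points are the leading genes without overlap, higher and lower in HARE5Hs/Hs, and the black diamond is Fzd8, at 0.09.

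Fzd8, the gene the enhancer acts on, did not differ between the genotypes beyond the spread between embryos. It stood at 82.1, 51.2 and 51.7 CPM in HARE5Hs/Hs replicates 1, 2 and 3, against 49.8, 72.2 and 52.3 CPM in WT replicates 1, 2 and 3. The groups overlapped, and 1 embryo of each, HARE5Hs/Hs replicate 1 and WT replicate 2, was high while the other 4 lay close together. The log2 fold change was 0.09 with a 95% interval of -0.30 to 0.47 (edgeR adjusted p = 1). A doubling of Fzd8 over the whole sample lies outside that interval. The value was -0.18, 0.20 and 0.20 without HARE5Hs/Hs replicates 1, 2 and 3 in turn. It was -0.02, 0.27 and 0.02 without WT replicates 1, 2 and 3 in turn. In dissected tissue, fewer cells of a type and less RNA per cell cannot be told apart, and a change limited to few cells would be diluted.

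The other Frizzled receptors were mostly a little lower in HARE5Hs/Hs. All 10 Frizzled genes passed the filter on low counts, and 8 of 10 had a fold change below 0, with a median of -0.21 beside 0.0022 over all tested genes. The median was -0.11 without WT replicate 3. In none of the 10 did the genotypes stand apart, against 7.15% of all tested genes. Fzd1 stood at 85.9, 90.5 and 99.8 CPM in HARE5Hs/Hs, against 103, 96.6 and 128 CPM in WT, so that 1 HARE5Hs/Hs embryo lay above the lowest WT embryo (-0.24, 95% interval -0.49 to -0.0041, edgeR adjusted p = 1). Fzd7 stood at 40.3, 55.4 and 49.6 CPM in HARE5Hs/Hs, against 62.5, 54.6 and 60.4 CPM in WT, again with an overlap of 1 embryo (-0.29, edgeR adjusted p = 1). Fzd10 was uneven within HARE5Hs/Hs, at 12.8 CPM in replicate 1 beside 31.7 and 26.7 CPM in replicates 2 and 3, against 30.3, 30.3 and 28.4 CPM in WT.

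Per transcript length, Fzd8 was the fourth most abundant of the family over the 6 embryos. The authors' FPKM averaged 34.7 for Fzd2, 31.1 for Fzd3, 24.0 for Fzd1 and 19.0 for Fzd8. It averaged 13.4 for Fzd9, 11.7 for Fzd7, 9.56 for Fzd10, 5.61 for Fzd6, 2.56 for Fzd4 and 0.595 for Fzd5. In FPKM, Fzd8 ranged from 16.3 to 26.0 in HARE5Hs/Hs and from 15.8 to 22.9 in WT, which overlaps the range of Fzd1 above it and of Fzd9 below it.

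**Figure D2:**
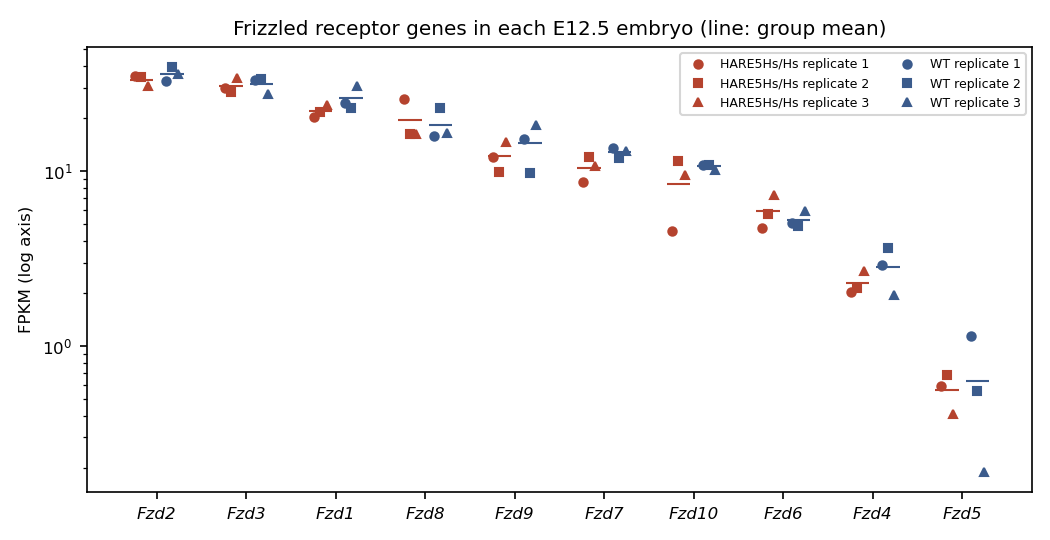
FPKM of the 10 Frizzled genes on a log axis, ordered by their mean, with 1 marker per E12.5 embryo (red HARE5Hs/Hs, left; blue WT, right) and a line at each group mean. The colours overlap for every receptor, including Fzd8.

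In the rest of the Wnt pathway most genes also had slightly lower values in HARE5Hs/Hs, and none passed. Over all tested genes 50.6% had a fold change above 0. Of 13 tested Wnt ligand and secretion genes 10 had a fold change below 0 (median -0.23), of 8 co-receptor genes 7 (median -0.19) and of 17 Wnt target genes 12 (median -0.16). The count that did not overlap between groups and was lower in HARE5Hs/Hs was 1 of 13 ligands, 2 of 8 co-receptors and 1 of 17 targets, where 3.81% of all tested genes did so. The summed ligand list came to 423, 560 and 557 CPM in HARE5Hs/Hs, against 569, 602 and 740 CPM in WT, so the sums did not overlap, by a narrow margin. The mean log2 CPM of the same list overlapped, at 3.63, 4.17 and 4.29 in HARE5Hs/Hs, against 4.25, 3.995 and 4.44 in WT. Single embryos moved these medians. The ligand median was -0.10 and the co-receptor median -0.0136 without WT replicate 1, and the ligand median was -0.45 without HARE5Hs/Hs replicate 2. The target median was -0.04 without WT replicate 3 and -0.06 without HARE5Hs/Hs replicate 1. Wnt7b, a ligand of the ventricular zone and of angiogenesis, stood at 124, 164 and 136 CPM in HARE5Hs/Hs, against 157, 173 and 205 CPM in WT (-0.34, 95% interval -0.64 to -0.04, edgeR adjusted p = 1).

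Axin2, Lef1 and Ccnd1 overlapped between the genotypes. Axin2, the negative feedback gene of the pathway, stood at 110, 135 and 155 CPM in HARE5Hs/Hs, against 156, 148 and 197 CPM in WT (-0.32, 95% interval -0.86 to 0.22). Lef1, a nuclear effector, stood at 43.4, 62.8 and 72.2 CPM in HARE5Hs/Hs, against 64.8, 57.7 and 74.8 CPM in WT (-0.15). In Axin2 and Lef1 HARE5Hs/Hs replicate 1 was the lowest of the 6 embryos. Ccnd1 stood at 348, 520 and 359 CPM in HARE5Hs/Hs, against 327, 506 and 332 CPM in WT (0.07, 95% interval -0.36 to 0.50). Among co-receptors, Lrp5 stood at 62.6, 64.1 and 66.9 CPM in HARE5Hs/Hs and at 80.3, 67.8 and 72.7 CPM in WT, and Ryk, a co-receptor with an inactive kinase, at 101, 109 and 106 CPM in HARE5Hs/Hs and at 111, 111 and 118 CPM in WT. Both separated the groups, at -0.19 and -0.11.

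The 2 Pygopus genes, which link beta-catenin to chromatin, had fold changes of opposite sign. Pygo2 stood at 78.5, 82.3 and 80.9 CPM in HARE5Hs/Hs, against 90.6, 93.7 and 96.2 CPM in WT, without overlap (-0.22, 95% interval -0.37 to -0.07). Pygo1 stood at 19.8, 21.8 and 24.7 CPM in HARE5Hs/Hs, against 19.2, 15.8 and 19.8 CPM in WT (0.27, 95% interval 0.02 to 0.53). Over the 18 tested beta-catenin core genes the median was -0.05, with 12 below 0. Amer1, a scaffold gene of beta-catenin destruction, was at 51.9, 53.3 and 54.7 CPM in HARE5Hs/Hs and at 67.1, 64.3 and 54.1 CPM in WT (-0.22). The Notch pathway, the other signal that holds radial glia, had 18 of 20 tested genes below 0 with a median of -0.10, which was -0.05 without WT replicate 1. Its sum was 1829.9, 1715 and 1761 CPM in HARE5Hs/Hs and 1985, 1865 and 1837 CPM in WT, with the nearest embryos almost level. Its mean log2 CPM overlapped, at 5.80, 5.74 and 5.83 in HARE5Hs/Hs, against 6.001, 5.76 and 5.89 in WT. Dll1, a Notch ligand of newborn neurons, is outside that list and was counted with the proneural and intermediate progenitor genes. It stood at 140, 138 and 132 CPM in HARE5Hs/Hs and at 142, 146 and 156 CPM in WT (-0.12).

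The genes next to Fzd8 on the chromosome were examined because an enhancer may reach more than one gene. In gene order on the reference chromosome 18 the tested protein-coding genes within 5 places are Rab18, Mkx, Armc4, Mpp7 and Wac on one side and Ccny, Colec12, Thoc1, Usp14 and Rock1 on the other. Of these 10, Rab18 and Thoc1 separated the genotypes, both higher in HARE5Hs/Hs, where 3.34% of all tested genes did so. Rab18, a small GTPase of lipid droplets and membrane traffic, stood at 74.9, 78.2 and 71.4 CPM in HARE5Hs/Hs, against 64.3, 60.7 and 64.4 CPM in WT (0.24, 95% interval 0.08 to 0.41, edgeR adjusted p = 1). Thoc1, a subunit of the THO complex of mRNA export, stood at 68.9, 79.6 and 73.1 CPM in HARE5Hs/Hs, against 65.8, 65.0 and 61.5 CPM in WT (0.21, 95% interval 0.03 to 0.38, edgeR adjusted p = 1). With the GC trend of each library removed, Rab18 was at 0.17 and Thoc1 at 0.13. At E14.5 Rab18 was at 0.09 and Thoc1 at -0.03, both with overlapping groups. Mpp7, a scaffold of cell junctions, was at 0.20 and at -0.54 at E14.5. The nearest neighbours Wac and Ccny were at 0.04 and 0.03, with intervals of -0.19 to 0.27 and -0.13 to 0.18.

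Chromosome 18 as a whole had the highest share of genes with an unadjusted p under 0.05 of any chromosome, 15 of 385 (3.90%), against 2.25% over all genes. Its share without overlap was 10.4%, 40 genes, of which 27 were higher and 13 lower in HARE5Hs/Hs, against 7.15% over all genes. At E14.5 the chromosome's share without overlap was 16.6%, against 18.4% over all genes. These shares are descriptions of genes that share a chromosome, and the chromosome was picked because it carries Fzd8. Its unadjusted share, too, lies under the level that the threshold allows where no gene differs.

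The leading genes on the higher side ran from 0.24 for Rab18 to 1.35 for Sh3rf3 on the log2 scale. The 10 genes with the smallest p among those higher in HARE5Hs/Hs without overlap and at 2 CPM or more had a median fold change of 0.47. Mrpl32, a protein of the mitochondrial ribosome, stood at 20.7, 19.5 and 18.2 CPM in HARE5Hs/Hs, against 14.6, 13.6 and 13.6 CPM in WT (0.48, 95% interval 0.21 to 0.75, edgeR adjusted p = 1). Mtif2, the mitochondrial translation initiation factor, stood at 42.9, 36.9 and 40.0 CPM in HARE5Hs/Hs and at 29.3, 34.6 and 32.2 CPM in WT (0.32). The others were the zinc finger gene Zfp160 (0.44), Trp53rkb (0.57), Rab18, Cir1 (0.31), a co-repressor that binds RBPJ, and the unnamed loci 5730508B09Rik (1.05) and Gm12992 (1.21).

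Fabp7 and Sh3rf3 were the members of that group with a wide spread in HARE5Hs/Hs. Fabp7, the brain lipid-binding protein of radial glia, stood at 279, 174 and 202 CPM in HARE5Hs/Hs, against 165, 151 and 163 CPM in WT (0.45, 95% interval 0.14 to 0.75, edgeR adjusted p = 1). Sh3rf3, a scaffold of JNK signalling, stood at 22.3, 6.75 and 6.78 CPM in HARE5Hs/Hs, against 5.61, 3.62 and 4.89 CPM in WT (1.35). Replicate 1 of HARE5Hs/Hs was the highest embryo for both. Without it the fold change of Fabp7 was 0.23 and that of Sh3rf3 was 0.53.

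The 10 leading genes lower in HARE5Hs/Hs had a median of -0.25. Scamp4, a secretory carrier membrane protein, stood at 48.4, 43.9 and 42.2 CPM in HARE5Hs/Hs, against 53.5, 57.8 and 56.9 CPM in WT (-0.32, 95% interval -0.50 to -0.14, edgeR adjusted p = 1). Pex6, an ATPase of peroxisome assembly, stood at 46.2, 49.6 and 43.2 CPM in HARE5Hs/Hs, against 53.1, 59.0 and 61.5 CPM in WT (-0.32). Ptprf, a receptor tyrosine phosphatase of axons and synapses and the most abundant of this group, stood at 517, 550 and 526 CPM in HARE5Hs/Hs, against 614, 639 and 605 CPM in WT (-0.22). The remainder were Ergic3 (-0.23), Rnf40 (-0.23), Pafah2 (-0.46), Pygo2, Vars2 (-0.27), Uhrf1bp1 (-0.23) and Rnh1 (-0.26). None of these 20 leading genes passed in any of the 15 alternative analyses. Their lack of overlap was part of how they were chosen, so no left-out embryo could turn their direction.

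Larger folds without overlap sat in weakly expressed genes. Grip2, a scaffold of glutamate receptors, stood at 5.56, 2.03 and 1.66 CPM in HARE5Hs/Hs, against 0.81, 1.17 and 1.44 CPM in WT (1.43). Cplx1, a regulator of synaptic vesicle release, stood at 7.95, 3.13 and 3.86 CPM in HARE5Hs/Hs, against 1.74, 1.93 and 2.70 CPM in WT (1.23). Papss2, which makes the sulfate donor for proteoglycans, stood at 0.795, 1.43 and 0.865 CPM in HARE5Hs/Hs, against 9.90, 1.58 and 1.94 CPM in WT (-2.10). The sizes rest on single embryos. Without HARE5Hs/Hs replicate 1 Grip2 was at 0.69 and Cplx1 at 0.71, and without WT replicate 1 Papss2 was at -0.77. Prdm1 (-1.16), the liver glycogen phosphorylase gene Pygl (-0.80), Prdm11 (-0.67) and Wscd2 (-0.66) complete the largest folds on the lower side.

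Neuronal genes tended to be higher in HARE5Hs/Hs, and 1 embryo carried that tendency. Of 20 young neuron genes 17 had a fold change above 0 (median 0.33), of 24 synapse and ion channel genes 20 (median 0.20) and of 24 axon guidance genes 20 (median 0.16). In these 3 lists 0 genes separated the groups, against 7.15% of all tested genes. The summed young neuron genes came to 3159, 1757 and 1983 CPM in HARE5Hs/Hs, against 2046, 1845 and 1943 CPM in WT. HARE5Hs/Hs replicate 1 had the highest sum. In the mean log2 CPM of the list each gene weighs the same. It was 6.21, 5.19 and 5.45 in HARE5Hs/Hs, against 5.62, 5.06 and 5.43 in WT, so the other 5 embryos also differed among themselves. Replicate 1 was the highest and replicate 2 the lowest in both genotypes. In the synapse and axon guidance lists, too, replicate 1 was the highest of each genotype. Without replicate 1 of HARE5Hs/Hs the medians were -0.04 for young neurons, -0.15 for synapse and ion channels and -0.06 for axon guidance.

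Single neuronal genes showed the same pattern. Neurod6, of young excitatory neurons, stood at 107, 15.4 and 56.8 CPM in HARE5Hs/Hs, against 37.2, 14.4 and 34.6 CPM in WT (1.06, 95% interval -0.06 to 2.17). Gria1, an AMPA receptor subunit, stood at 12.7, 1.65 and 4.72 CPM in HARE5Hs/Hs, against 2.55, 1.46 and 1.25 CPM in WT (1.84, 95% interval 0.50 to 3.19, edgeR adjusted p = 1). Gap43, a protein of growth cones, stood at 79.5, 46.3 and 42.6 CPM in HARE5Hs/Hs, against 43.7, 39.8 and 37.3 CPM in WT (0.48). In each, replicate 1 of HARE5Hs/Hs was the highest of all embryos. The layer genes Etv1 (0.59), Rorb (1.19), Pou3f1 (1.19), Tbr1 (0.25) and Bcl11b (0.43) had their highest value in the same embryo. Their lists went both ways. Of 13 deep-layer genes 8 were above 0 and 5 below (median 0.07). Of 10 tested upper-layer genes 7 were above 0 and 3 below (median 0.24), with Cux2 at -0.28.

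That embryo also lay farthest along the direction from E12.5 to E14.5. Across 12055 genes, its deviation from the mean of the 6 E12.5 libraries had a Spearman correlation of 0.614 with the gene's difference between E14.5 and E12.5. The E12.5 mean in that difference includes the embryo itself, and genes are not independent. The E14.5 mean holds embryos of both genotypes, so a genotype difference at that age enters the direction as well. The same correlation was -0.405 and -0.013 for HARE5Hs/Hs replicates 2 and 3, and 0.0938, -0.308 and -0.131 for WT replicates 1, 2 and 3. Stage within the day is not labelled, and the part of maturation in the neuronal values was not tested. Hmga2, which marks early progenitors, stood at 340, 664 and 442 CPM in HARE5Hs/Hs, against 301, 723 and 516 CPM in WT, with replicate 1 the lowest in each genotype.

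Progenitor and cell cycle lists had medians of at most 0.11 in size. Of 24 radial glia genes 14 were above 0 (median 0.07), of 16 proneural and intermediate progenitor genes 13 (median 0.11) and of 20 G2 and M phase genes 13 (median 0.02). Of 20 S phase genes 14 were below 0 (median -0.04). Without HARE5Hs/Hs replicate 1 the proneural and intermediate progenitor median was -0.02. Sox2 (0.13), Pax6 (0.09), Eomes (0.16), Neurog2 (0.06) and Mki67 (0.15) all had intervals that span 0. Pax6, the regulator of dorsal radial glia, stood at 168, 153 and 140 CPM in HARE5Hs/Hs, against 129, 172 and 133 CPM in WT. Its 95% interval of -0.16 to 0.35 leaves out a change of 0.5 in either direction. Nr2f1, which sets the caudal cortical areas, was at 196, 156 and 169 CPM in HARE5Hs/Hs, against 216, 199 and 234 CPM in WT, without overlap (-0.31, 95% interval -0.56 to -0.07). Cajal-Retzius genes went both ways, with 4 above and 5 below 0 (median -0.13). Reln, which defines these cells, stood at 181, 72.2 and 142 CPM in HARE5Hs/Hs, against 116, 77.4 and 99.8 CPM in WT, with overlap. Ebf3 of the same cells stood at 24.1, 23.1 and 27.3 CPM in HARE5Hs/Hs, against 46.8, 28.9 and 30.6 CPM in WT (-0.51, and -0.27 without WT replicate 1).

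**Figure D3:**
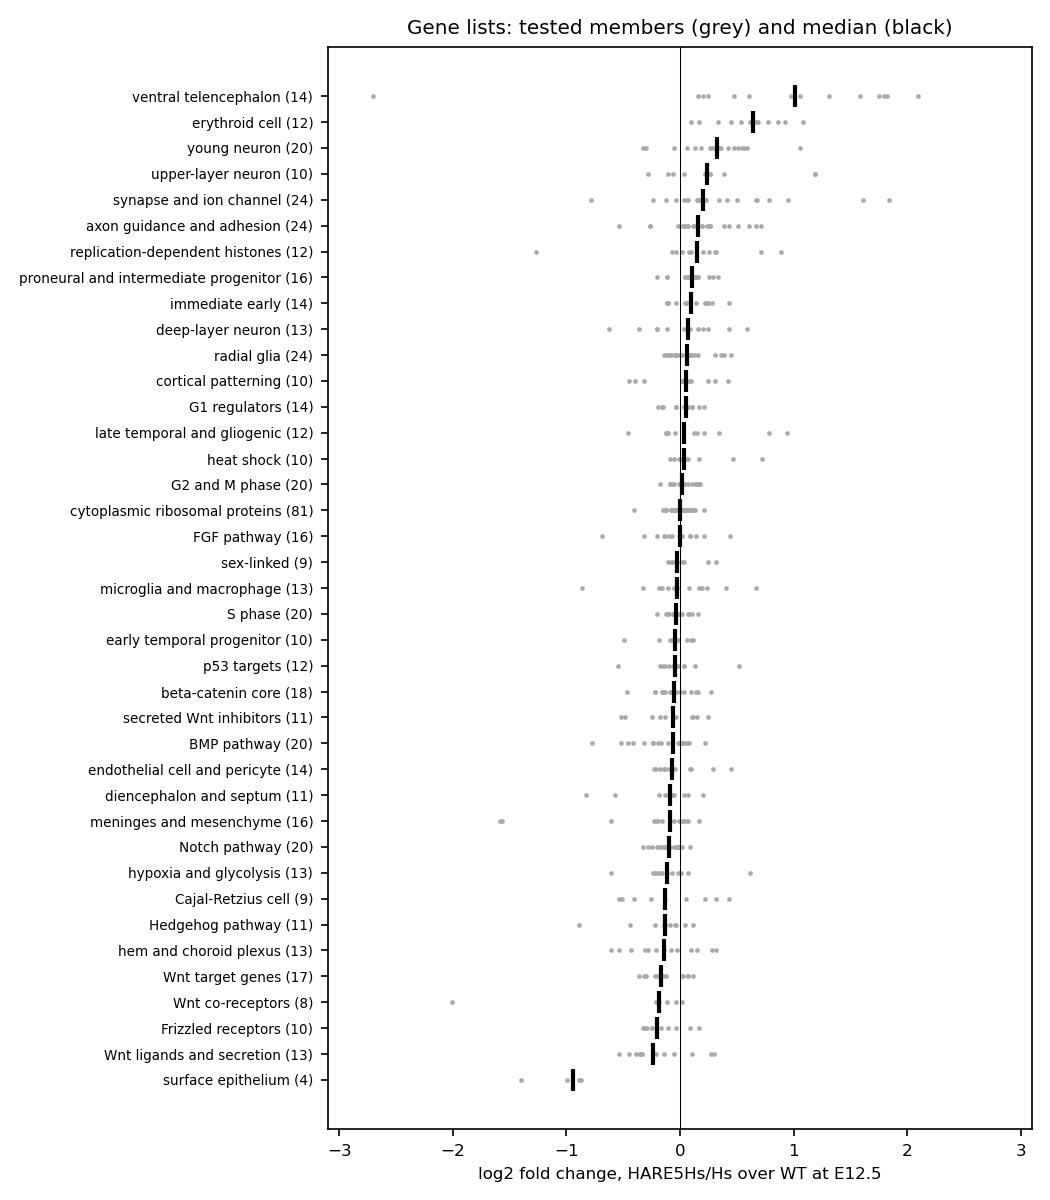
Log2 fold changes of HARE5Hs/Hs over WT at E12.5 for the tested members of 39 gene lists (grey points, number tested in brackets) with the median of each list (black bar), ordered by median. Medians run from -0.94 for surface epithelium to 1.02 for the ventral telencephalon.

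The tissue carried the markers of the dorsal telencephalon in every embryo. Emx1, a marker of the dorsal pallium, stood at 60.2, 60.7 and 66.4 CPM in HARE5Hs/Hs and at 53.9, 47.1 and 76.9 CPM in WT. Neighbouring tissue varied from embryo to embryo. The ventral telencephalon list had 13 of 14 tested genes above 0 (median 1.02) and summed to 333, 219 and 84.8 CPM in HARE5Hs/Hs, against 169, 127 and 96.0 CPM in WT. The genotypes overlapped, since replicate 3 of each held little of it, and the median ran from 0.36 without HARE5Hs/Hs replicate 1 to 1.61 without WT replicate 1. Nkx2-1, which defines the medial ganglionic eminence, was at 0 in HARE5Hs/Hs replicates 1 and 3 and WT replicate 3, and highest, at 10.6 CPM, in WT replicate 1. Dlx1, of GABA-lineage progenitors, stood at 60.6, 27.9 and 1.33 CPM in HARE5Hs/Hs, against 11.5, 12.4 and 2.76 CPM in WT. The part of ventral tissue in the neuronal values was not tested.

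Other cell types moved with single embryos. The erythroid list had 12 of 12 tested genes above 0 (median 0.64), and hemoglobin genes took 0.632%, 0.508% and 1.51% of counts in HARE5Hs/Hs, against 0.547%, 0.443% and 0.611% in WT. Replicate 3 of HARE5Hs/Hs was the highest, and without it the erythroid median was 0.03. The surface epithelium list came to 10.6, 14.8 and 14.4 CPM in HARE5Hs/Hs, against 47.5 CPM in WT replicate 1 and at most 16.8 CPM in the other WT embryos, and the epidermal keratin genes Krt5 and Krt14 stayed at or below 0.245 CPM in every embryo. Meningeal and mesenchymal genes summed to 1705, 2752 and 2360.2 CPM in HARE5Hs/Hs, against 3073, 2207 and 1948 CPM in WT. Xist was between 1345 and 2311 CPM in 4 embryos and under 1 CPM in HARE5Hs/Hs replicate 3 and WT replicate 1, so each genotype holds 1 embryo without it.

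**Figure D4:**
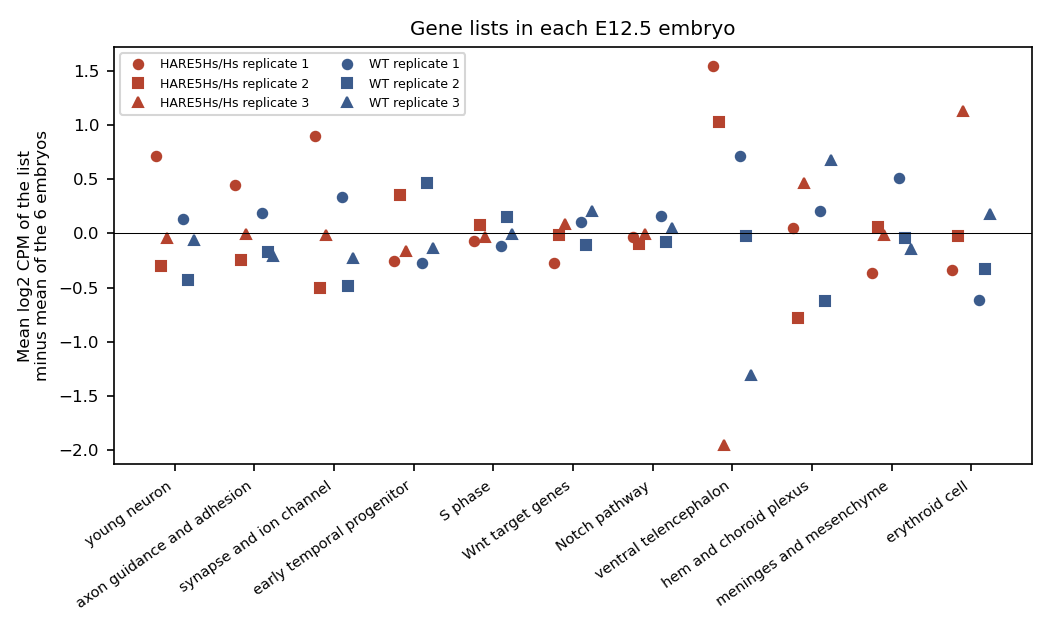
Mean log2 CPM of 11 gene lists in each E12.5 embryo, minus the mean of the 6 embryos, with HARE5Hs/Hs in red to the left of WT in blue. HARE5Hs/Hs replicate 1 is the highest point of the young neuron, axon guidance and synapse lists, and the ventral telencephalon list spreads most.

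The GC content of a transcript also moved with the fold change. Across the same 12055 genes the Spearman correlation of the fold change with GC content was -0.306 at E12.5, and at E14.5 it was 0.0655. By library, the correlation of the deviation from the mean with GC was -0.119, 0.0308 and -0.332 in HARE5Hs/Hs replicates 1, 2 and 3, and 0.0685, -0.0952 and 0.374 in WT replicates 1, 2 and 3. The value for the contrast was -0.135 without WT replicate 3 and -0.190 without HARE5Hs/Hs replicate 3. The 10 leading genes higher in HARE5Hs/Hs had a median GC content of 43.5%, the 10 leading lower genes 57.2% and all tested genes 49.8%. The part of GC content in those genes was not tested beyond removing the trend from each library. After removal 0 genes passed, as in the main fit, so that count cannot show it. At an unadjusted edgeR p under 0.05, 166 genes were then higher and 95 lower, against 196 and 126 in the main fit. Ergic3 was then at -0.17, Ptprf at -0.17 and Mrpl32 at 0.42, nearer to 0. Trp53rkb was at 0.60 and Gm12992 at 1.24, farther from it. The locus 5730508B09Rik has no GC value and did not enter that fit. After that removal the Frizzled median was -0.15, the co-receptor median -0.13, the Wnt target median -0.15 and the Wnt ligand median -0.26. In the main fit these were -0.21, -0.19, -0.16 and -0.23. The beta-catenin core median was -0.02 after removal and -0.05 in the main fit, and the Notch median -0.07 and -0.10. Pygo2 was at -0.16 after removal.

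**Figure D5:**
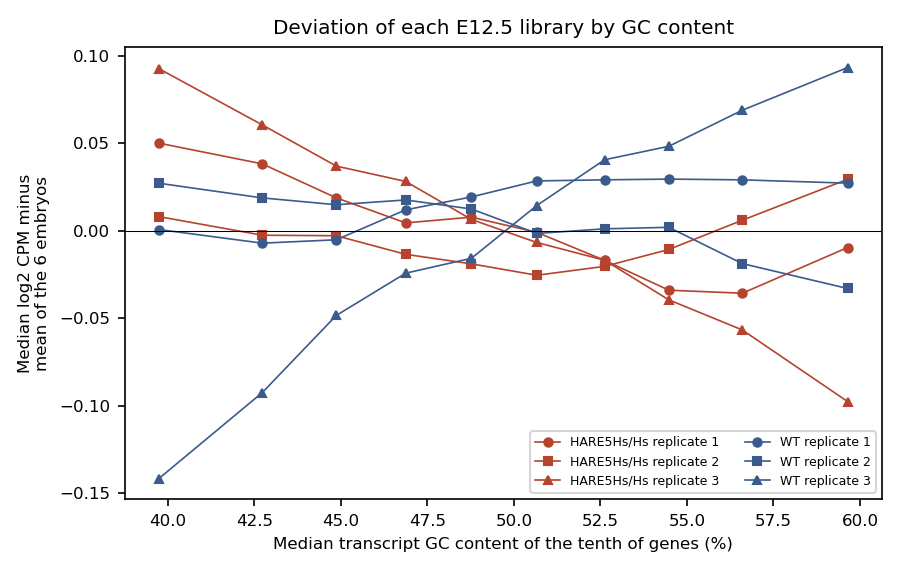
Median deviation of log2 CPM from the mean of the 6 E12.5 embryos in 10 equal groups of genes ordered by transcript GC content in percent, with 1 line per library (red HARE5Hs/Hs, blue WT). WT replicate 3 climbs with GC content and HARE5Hs/Hs replicate 3 descends.

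The E14.5 embryos, which share no animal with those at E12.5, did not repeat most of the E12.5 differences of single genes. Across genes, 8075 (56.4%) had the same sign of fold change at both ages, and the Spearman correlation of the 2 sets of fold changes was 0.185. Of the 478 genes higher without overlap at E12.5, 40 (8.37%) were higher and 36 (7.53%) lower without overlap at E14.5, where 9.48% of all genes were higher. Of the 545 lower genes, 63 (11.6%) were lower and 28 (5.14%) higher at E14.5, where 8.93% of all genes were lower. Of the 10 leading higher genes 7 had the same sign at E14.5 (median 0.10), against 48.6% of all genes above 0 at that age, and of the 10 leading lower genes 5 (median -0.0071), against 51.4% below 0. None of the 20 separated the groups in the same direction at E14.5. Several list medians kept their sign at E14.5, beside -0.0069 over all tested genes. They were 0.43 for young neurons, 0.58 for synapse and ion channels, 0.36 for axon guidance and 1.54 for the ventral telencephalon. The Frizzled median was -0.18, that of Wnt ligands -0.85, co-receptors -0.21 and Wnt targets -0.32. Others turned sign, such as the beta-catenin core (0.09), radial glia (-0.09) and G2 and M phase (-0.29). Single embryos were not left out at E14.5.

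A few genes held or turned their direction between ages, and were picked after their values were seen. Rpl30, a ribosomal protein, stood at 27.9, 23.2 and 21.02 CPM in HARE5Hs/Hs and at 34.0, 31.9 and 29.9 CPM in WT at E12.5 (-0.41), and was at -0.44 at E14.5. Grip2 was at 1.43 at E12.5 and 1.16 at E14.5. Cux2, a factor of upper-layer neurons and their progenitors, stood at 35.5, 33.2 and 33.3 CPM in HARE5Hs/Hs and at 38.4, 39.2 and 46.7 CPM in WT (-0.28). At E14.5 it was higher in HARE5Hs/Hs, at 45.3, 70.1 and 63.5 CPM against 32.9, 33.1 and 30.8 CPM in WT (0.88). Sp8, an area-patterning factor, was at 0.31 and -0.49, and Ckap2, a spindle protein, at 0.14 and -0.36. The differences between ages did not pass, with an edgeR adjusted p of 0.921 for the interaction of Cux2, Sp8 and Ckap2 alike. Over all genes 0 interactions passed (0%), and 731 (5.11%) had an unadjusted p under 0.05.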

How the data were processed

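Cortical RNA of single embryos was sequenced after TruSeq Stranded mRNA library preparation, per the labels' protocols. STAR, DESeq2 and the build mm39 are named in the submitters' processing notes, and no source used here gives versions, the counting tool, the strand setting or the annotation. The authors' deposited tables hold, per the file headers, an expected count and an FPKM value for 24411 genes in each library. The deposited expected counts are whole numbers, and 6454 genes had none in the 12 libraries. Another 12 columns, of 6 libraries matching no sample, were not used. Totals at E12.5 were 16047128, 17670103 and 14708290 counts in HARE5Hs/Hs and 15443742, 16906738 and 15411461 in WT.

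These counts entered edgeR 4.0.16 (R 4.3.3, with limma 3.58.1), and DESeq2 1.42.0 served as an alternative. After filterByExpr (minimum count 10) and TMM scaling, 1 quasi-likelihood model held all 12 libraries, with a mean for every group and without a block. P-values are 2-sided and Benjamini-Hochberg adjusted over 14311 genes with a threshold of 0.05. The SE is the log2 fold change divided by the root of F, an approximation. CPM per embryo uses TMM-scaled library sizes. FPKM was only described. The fit was also run on simulated counts with planted changes and the same relative spread for every gene. That run does not cover the small differences or the uneven embryos described here. GC content and gene order came from GRCm38 annotation, with GC for 96.3% and a chromosome for 95.4% of tested symbols. That build differs from the files' build, so no coordinates are given.

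Named genes are, in each direction, the 10 with the smallest p among genes without overlap at a mean of 2 CPM or more, the 5 largest folds among them, up to 3 members per list with the smallest p, fixed pathway genes, and genes within 5 places of Fzd8. Some genes that meet these rules are not reported here. The comparison, its 39 gene lists and these rules were chosen with earlier results of these data known. Lists are described by counts and medians without a test. The labels give no litter or batch, so same-numbered WT and HARE5Hs/Hs embryos were not treated as pairs. The deviations of same-numbered embryos had correlations of 0.0963, 0.336 and 0.124. Those of differently numbered embryos ran from -0.242 to 0.122. Alternatives were DESeq2, its size factors, no filter, a filter of 1 CPM in 3 libraries, only the E12.5 libraries, the replicate number as a block, Xist as a covariate, and leaving out each E12.5 embryo. Keeping only E12.5 embryos with Xist, and removing each library's GC trend over 20 bins, were added after the data were seen.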

Additional observations from a re-analysis of the deposited data

How the results depend on the processing

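The count of genes that passed was 0 under each of the 15 alternatives, and the smallest adjusted p of any gene in any of them was 0.444. Genes with an unadjusted p under 0.05 were less stable. Those higher in HARE5Hs/Hs numbered 114 with only the E12.5 libraries and 337 with only the E12.5 embryos that express Xist, and 133 to 484 when 1 embryo was left out, the highest without HARE5Hs/Hs replicate 2. Those lower numbered 95 to 212 when 1 embryo was left out, with 212 without HARE5Hs/Hs replicate 2 and 206 without WT replicate 2. The cause was not tested.

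With the replicate number as a block, 0 genes passed, and 201 were higher and 94 lower at an unadjusted p under 0.05. The labels give same-numbered embryos nothing in common but the number. All 3 of their correlations were above 0, at 0.0963, 0.336 and 0.124 for replicates 1, 2 and 3. Those of differently numbered embryos ran from -0.242 to 0.122. Early temporal progenitor genes had a mean log2 CPM of 5.57, 6.18 and 5.66 in HARE5Hs/Hs, against 5.55, 6.29 and 5.69 in WT. Meningeal and mesenchymal genes did not run in parallel, at 4.73, 5.16 and 5.08 in HARE5Hs/Hs, against 5.61, 5.05 and 4.95 in WT. The embryos were not treated as pairs because the labels do not pair them. Whether they share a litter or day was not tested, and any variation they share counts as spread in the main fit. Fzd8 ran from -0.18 to 0.27 with 1 embryo left out. With all 6 embryos or the added alternatives, 71 of 77 recomputed genes kept their direction (5730508B09Rik has no GC value and no result without the GC trend). Those that reversed in embryos with Xist were Fzd5 (0.79), Fzd6 (-0.0403), Neurog2 (-0.0233), Wac (-0.0181) and Ccny (-0.0028). Fzd5 also reversed with the block (0.12), and without the GC trend Wac (-0.0244), Ccny (-0.0134) and Usp14 (-0.0229) reversed. With 1 embryo left out, 13 genes reversed, Fzd8 among them. The other ranges were -0.12 to 0.0221 for Fzd3, -0.59 to 0.60 for Fzd5, -0.0071 to 0.31 for Fzd6, -0.0233 to 0.12 for Wac, -0.0131 to 0.0860 for Ccny, -0.40 to 0.24 for Hmga2, -0.30 to 0.0355 for Lef1, -0.0668 to 0.25 for Sox2, -0.0657 to 0.33 for Eomes, -0.0364 to 0.19 for Neurog2, -0.0437 to 0.43 for Tbr1 and -0.0138 to 0.30 for Mki67.

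With 3 embryos per group, differences within the 95% intervals given could not be seen. Litter and stage within the day are not labelled, dissection is part of the spread between embryos, and values of weakly expressed genes rest on few reads.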

Other observations

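Lists of cell stress and handling held no gene that passed at E12.5. Of 10 tested heat shock genes 6 had a fold change above 0, with a median of 0.04. Dnaja1, a co-chaperone of HSP70, stood at 383, 382 and 417 CPM in HARE5Hs/Hs, against 355, 358 and 339 CPM in WT, without overlap, and did not pass (0.17, 95% interval 0.01 to 0.32). With the GC trend of each library removed its value was 0.09. Of 14 immediate early genes 10 were above 0 (median 0.10). Of 13 genes of hypoxia and glycolysis 10 were below 0 (median -0.12), and of 12 p53 target genes 8 (median -0.05). The 81 tested cytoplasmic ribosomal protein genes had 42 above 0 and 39 below 0, and Rpl30 was the 1 member that separated the groups, against 7.15% of all tested genes.

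Among glial lineage genes, Slc1a3, a glutamate transporter of radial glia, followed the same embryo as Fabp7. It stood at 143, 69.0 and 102 CPM in HARE5Hs/Hs, against 88.6, 73.9 and 77.5 CPM in WT, with HARE5Hs/Hs replicate 1 the highest and replicate 2 the lowest of the 6 (0.39, 95% interval -0.03 to 0.80). The medians of other signalling lists were -0.06 for the BMP pathway, -0.13 for the Hedgehog pathway and -0.0024 for the FGF pathway.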
